A study of Mus musculus with 8 samples.

Results

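Transcripts of the collagen chains and of the enzymes that modify collagen were followed across 8 RNA sequencing libraries of mouse lung adenocarcinoma cell lines. The members were all genes in the deposited table whose symbol is Col, a number, a and a number (43 collagen genes), joined by 12 genes that act on collagen: Lox, Loxl1, Loxl2, Loxl3, Loxl4, Plod1, Plod2, Plod3, P4ha1, P4ha2, P4ha3 and Serpinh1. Together they are 55 of the 23224 genes listed. There were 4 groups of 2 libraries each. Tmet was derived from a metastatic primary lung tumour and carries no treatment label. The other groups came from non-metastatic primary tumour cells (Tnonmet) infected with retroviruses and lentiviruses that express short hairpin RNAs (shRNAs). The triple knockdown received shRNAs against Nkx2-1, Foxa2 and Cdx2 (labelled shNkx2-1/Foxa2/Cdx2), shNkx2-1 received the shRNA against Nkx2-1 alone, and shControl received an shRNA against luciferase. All libraries, shControl included, carry the genotype KrasG12/+;Trp53-/-. The lines were grown in DMEM with 10% serum, and the labels do not say how many tumours or clones stand behind a group. Tmet differs from the Tnonmet groups both in tumour of origin and in having no labelled vector, and the parts of these cannot be told apart.

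Collagens are triple helices of partner chains. Type IV collagen forms the sheet-like network of basement membranes on which epithelial cells rest, type VI forms beaded filaments, and the fibrillar collagens (types I, II, III, V, XI and relatives) form the fibres of connective tissue and of tumour stroma. Inside the cell, prolyl 4-hydroxylases (P4ha subunits) and lysyl hydroxylases (Plod enzymes) modify the chains and the chaperone Serpinh1 holds the folded helix. Outside it, lysyl oxidases (Lox and the Loxl enzymes) crosslink the assembled collagen.

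Total estimated counts were 14496995 to 21044835 per library. Levels are given in CPM, that is counts scaled to the library total with TMM factors. A floor of 3 counts corresponds to 0.151 to 0.2 CPM. Changes are log2 fold changes with adjusted p from edgeR's quasi-likelihood test over 13318 genes, and a change was called at an adjusted p under 0.05. Nothing in the labels says that the libraries of a group are separate cultures. The p therefore sets a group difference against the spread of duplicates, estimated over all groups, and that spread may be technical. Of the targeted genes, Nkx2-1 stood at 38.1 and 34.0 CPM in the triple knockdown, 37.7 and 44.8 CPM in shNkx2-1 and 76.4 and 68.0 CPM in shControl. Foxa2 stood at 34.1 and 28.2 CPM in the triple knockdown, 49.1 and 41.6 CPM in shNkx2-1 and 56.8 and 55.1 CPM in shControl. Cdx2 stood at 9.4 and 6.79 CPM in the triple knockdown, 175 and 186 CPM in shNkx2-1 and 98.5 and 111 CPM in shControl. It was called higher in shNkx2-1 than in shControl (log2 change 0.79, adjusted p 0.0328), a call lost in a fit with 1 library left out. In Tmet, Nkx2-1 was at 0.219 and 0.353 CPM, Foxa2 at 1.2 and 1.36 CPM and Cdx2 at 0.382 and 0.353 CPM. The summed level of 10 epithelial markers was 1436 to 2623 CPM in Tmet, 9273 to 10268 CPM in the triple knockdown, 6845 to 7363 CPM in shNkx2-1 and 7991 to 8286 CPM in shControl. The epithelial cadherin Cdh1 was at 3.17 and 3.32 CPM in Tmet against 682 to 1005 CPM in the Tnonmet libraries, while Epcam was at most 0.676 CPM in every library. The keratin genes Krt8 and Krt18 held most of the marker sum in every library. In Tmet, Krt8 stood at 1310 and 776 CPM and Krt18 at 1134 and 537 CPM. Against shControl, Krt8 was called lower there (log2 change -1.90, adjusted p 0.000251) and Krt18 was not called (-0.71, 0.0691). In the triple knockdown against shControl, Krt18 was called higher (1.01, 0.0404) and Cdh1 lower (-0.44, 0.0348). The 12 fibroblast markers summed to 40.3 to 111 CPM in Tmet, 20.5 to 22.3 CPM in the triple knockdown, 38.9 to 52.0 CPM in shNkx2-1 and 34.0 to 38.6 CPM in shControl, with Lum and Tcf21 at 0 in every library. Sums of 9 leukocyte markers were at most 4.79 CPM and of 9 endothelial markers at most 1.81 CPM. In such bulk libraries, fewer cells of a type and less RNA per cell cannot be told apart.

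The make-up of the collagen transcripts differed between the groups more than their sum did. Summed over the 43 genes, collagen was at 1825 and 2355 CPM in Tmet, 2746 and 2936 CPM in the triple knockdown, 1669 and 1599 CPM in shNkx2-1, and 2136 and 1992 CPM in shControl. Scaled per kb of transcript, the type IV genes held 33.0% and 25.6% of the collagen level in Tmet, 50.4% and 50.5% in the triple knockdown, 58.7% and 56.6% in shNkx2-1, and 78.9% and 76.8% in shControl. The fibrillar genes held 35.6% and 58.0% in Tmet, 5.75% and 5.35% in the triple knockdown, 4.01% and 3.19% in shNkx2-1, and 1.77% and 2.24% in shControl. Both shares separate all 4 groups without overlap, in opposite orders. Shares of 1 total constrain each other, and the type IV sums ran in another order. In CPM they were 609 and 623 in Tmet, 1503 and 1615 in the triple knockdown, 1059 and 993 in shNkx2-1, and 1748 and 1595 in shControl. The triple knockdown thus overlapped with shControl and lay above shNkx2-1. The type VI genes held 2.49% and 1.95% in Tmet, 16.4% and 16.1% in the triple knockdown, 15% and 18.5% in shNkx2-1, and 5.59% and 6.88% in shControl, so that the knockdown groups lay above shControl and Tmet below it.

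**Figure D1:**
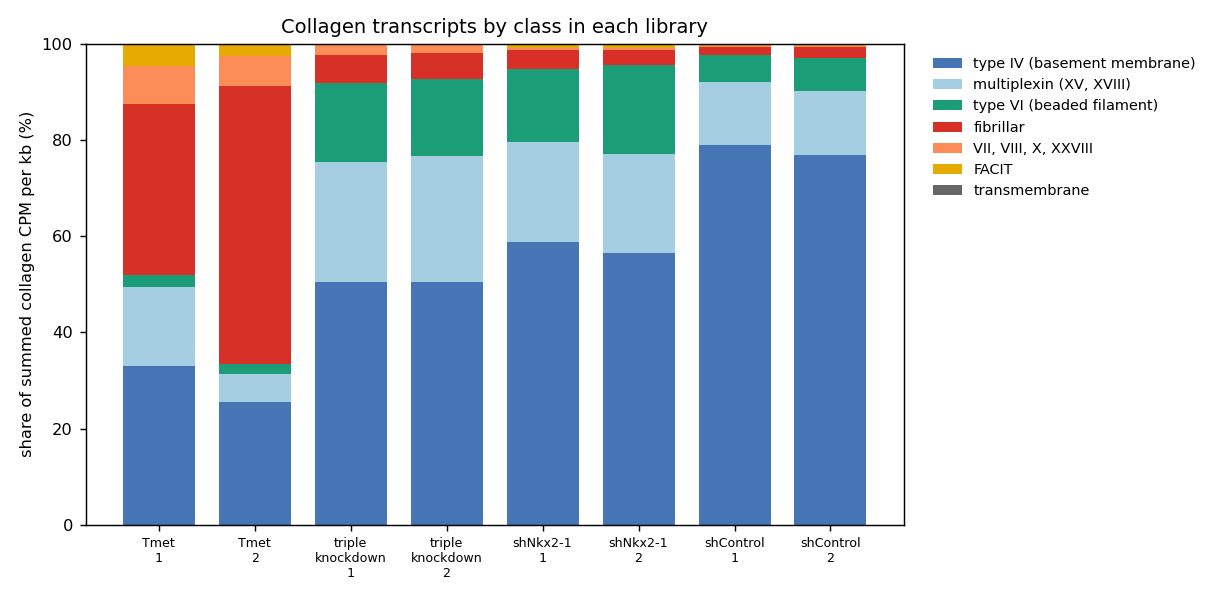
Share of the summed collagen level (CPM per kb of transcript, in percent) held by each collagen class; each bar is 1 library. The type IV share is 33.0% and 25.6% in Tmet and 78.9% and 76.8% in shControl, and the fibrillar share is 35.6% and 58.0% in Tmet and 1.77% and 2.24% in shControl.

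The most abundant chain per kb also differed between the groups. In Tmet replicate 1 Col18a1 (45.5 CPM per kb), Col4a1 (42.1) and Col5a1 (41.2) were close together, while in Tmet replicate 2 Col1a2 (84.6 CPM per kb) and Col1a1 (58.3) led. Col18a1, whose product is a basement membrane proteoglycan that carries the endostatin fragment, led both triple knockdown libraries at 115 and 127 CPM per kb, with Col4a1 (111 and 125) and Col4a2 (114 and 115) close behind. Col4a1 led both shControl libraries, at 163 and 148 CPM per kb, with Col4a2 after it at 89.8 and 81.7 CPM per kb.

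Of the 55 members, 39 passed the filter on low counts: 27 collagens and all 12 genes that act on collagen. In the triple knockdown against shControl, 16 members were called higher and 3 lower (12.0% and 12.4% of all tested genes were called higher and lower). In Tmet against shControl, 25 were called higher and 8 lower (29.2% and 28.1% of all genes). In shNkx2-1 against shControl, 7 were called higher and 2 lower (2.17% and 1.38% of all genes). The triple knockdown against shNkx2-1 gave 15 higher and 2 lower (9.27% and 11.1% of all genes), and Tmet against the triple knockdown gave 21 higher and 9 lower (24.0% and 24.1% of all genes). The median log2 change of the 39 was 1.04 in the triple knockdown, 1.75 in Tmet and 0.58 in shNkx2-1, each against shControl, beside medians of 0.00, 0.02 and 0.00 over all tested genes. With genes at 0 counts in a group held at their bound and genes with no more counts than the floor in either group set to 0, these member medians were 0.96, 1.75 and 0.54. Several members passed the filter only through a group in which they were high, so these counts describe the members that could be tested. Among them, Col4a3, Col4a4, Col4a6, Col11a1, Col15a1, Lox and Loxl1 passed it only through Tmet, and their calls in Tmet carry that limit. The comparisons against shControl share the shControl libraries, and no overlap between them was computed. Where the groups of a gene are said below not to overlap, the share of all tested genes that separate likewise was not computed.

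**Figure D2:**
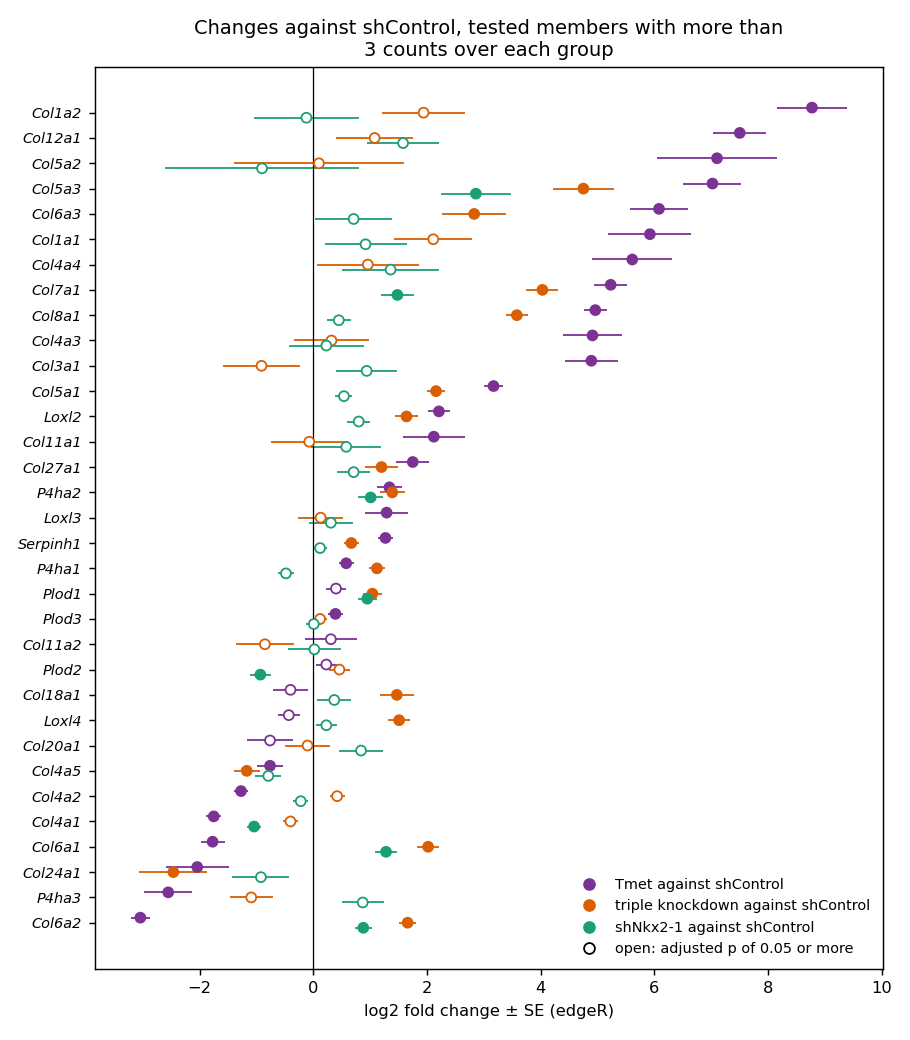
Log2 fold change against shControl with its standard error (horizontal axis) for the 33 tested members with more than 3 counts over each group, ordered by the change in Tmet; filled points are called (adjusted p under 0.05, edgeR). Col6a1 and Col6a2 lie right of 0 in the triple knockdown (2.02 and 1.66) and left of 0 in Tmet (-1.77 and -3.04).

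The calls in shNkx2-1 against shControl were the least stable, and no gene called there kept its call in every alternative. This limit applies to each such call given below: Col4a1, Col5a3, Col6a1, Col6a2, Col7a1, P4ha2, Plod1 and Plod2, and Pcolce outside the members. edgeR called 0 members when shControl replicate 1 or 2 or shNkx2-1 replicate 1 or 2 was left out, with 11 to 15 members at an unadjusted p under 0.05 in those fits, against 16 with all libraries (DESeq2 with all libraries called 12). The highest adjusted p of the 8 named calls then ranged from 0.106 (Col4a1) to 0.317 (Col5a3). The triple knockdown and Tmet libraries belong to neither group compared, but enter the filter, the scaling and the estimate of the spread. Fewer members were called without triple knockdown replicate 1 or 2, and more without Tmet replicate 1 or 2. In the triple knockdown against shControl, Col4a5, Col14a1 and Col24a1 made up the lower calls, whose number was 0 or 1 without any one of the 4 libraries compared and 5 without Tmet replicate 1 or 2. In the triple knockdown against shNkx2-1, 6 to 9 members were called higher without any one of the 4 libraries compared. The lower calls there were 0 without shNkx2-1 replicate 2 or triple knockdown replicate 2, 1 without triple knockdown replicate 1, and 4 without Tmet replicate 1 or 2.

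The major basement membrane chains Col4a1 and Col4a2 were highest in different groups. Col4a1 stood at 278 and 333 CPM in Tmet, 732 and 826 CPM in the triple knockdown, 478 and 519 CPM in shNkx2-1, and 1079 and 977 CPM in shControl. Its 4 groups do not overlap, and shControl was highest. The log2 change against shControl was -1.75 ± 0.13 (SE) in Tmet (adjusted p 2.07e-05), -0.40 ± 0.13 in the triple knockdown (0.0546) and -1.04 ± 0.13 in shNkx2-1 (0.00858). Col4a2, its partner in the same trimer, stood at 229 and 228 CPM in Tmet, 736 and 742 CPM in the triple knockdown, 535 and 414 CPM in shNkx2-1, and 579 and 527 CPM in shControl. Here the triple knockdown was highest, Tmet was lowest, and shNkx2-1 and shControl overlapped. Col4a2 was called lower in Tmet against shControl (log2 change -1.27 ± 0.13, adjusted p 0.000131) and not called in the triple knockdown (0.42 ± 0.13, 0.0538) or shNkx2-1 (-0.22 ± 0.13, 0.441). Against shNkx2-1, Col4a1 and Col4a2 both rose by 0.64 in the triple knockdown (adjusted p 0.0102 and 0.0126). These calls were lost without some of the libraries compared, with adjusted p up to 0.094 for Col4a1 without shNkx2-1 replicate 1, replicate 2 or triple knockdown replicate 2, and up to 0.0847 for Col4a2 without shNkx2-1 replicate 2 or either triple knockdown library. The triple knockdown values of Col4a1 and Col4a2 against shControl were called without either Tmet library.

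The 2 genes lie head to head, and their annotated starts overlap by 22 bases on chromosome 8, in a region known as a bidirectional promoter. The overlap is shown because both transcripts begin in it, and the capitals mark a GC box (GGGCGG on either strand). RefSeq places it at chr8:11312805-11312826 of GRCm38.p6, plus strand.
Col4a1 and Col4a2 start overlap: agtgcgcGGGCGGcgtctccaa

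The count of Col4a1 over that of Col4a2 within a library was, on the log2 scale, 0.28 and 0.55 in Tmet, -0.01 and 0.16 in the triple knockdown, -0.16 and 0.33 in shNkx2-1, and 0.90 and 0.89 in shControl. The shControl libraries lay above all others, and the shNkx2-1 values span those of the triple knockdown and overlap with Tmet.

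**Figure D3:**
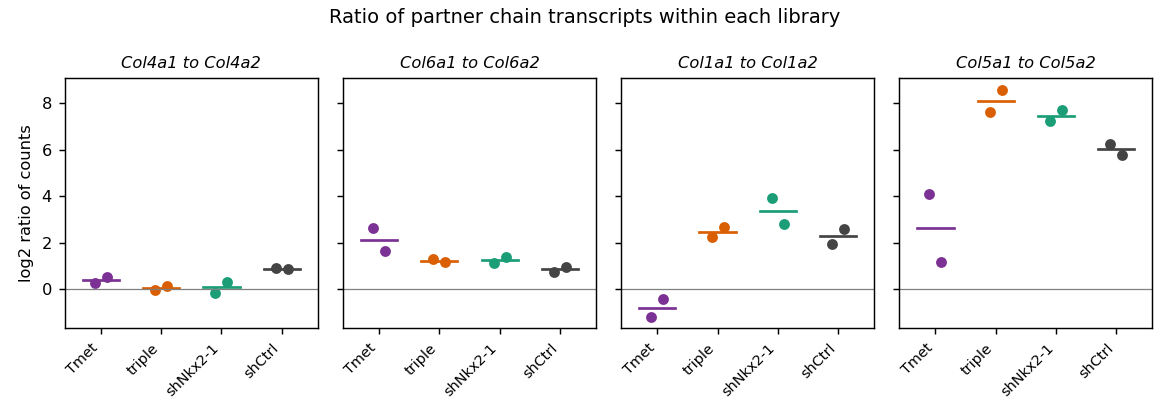
Log2 ratio of the counts of 2 partner chains within each library (points), with the group mean (line). For Col1a1 to Col1a2 the Tmet libraries lie at -1.18 and -0.39, below all Tnonmet libraries, and for Col4a1 to Col4a2 the shControl libraries (0.90 and 0.89) lie above the rest.

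Among the minor type IV chains, Col4a5 was called lower and Col4a3, Col4a4 and Col4a6 higher in Tmet against shControl. Col4a5, found in kidney, lung and other specialised basement membranes, stood at 63.3 and 43.0 CPM in Tmet, 33.9 and 46.1 CPM in the triple knockdown, 44.7 and 59.2 CPM in shNkx2-1, and 89.2 and 90.7 CPM in shControl. It was called lower than in shControl in Tmet (log2 change -0.76 with adjusted p 0.0219), and likewise in the triple knockdown (-1.17, 0.00888), with shControl above every other library. Both calls were lost without either shControl library. They were also lost without Tmet replicate 2 (Tmet) or triple knockdown replicate 1 (triple knockdown), and adjusted p reached 0.0839 and 0.0794. Col4a3 stood at 15.4 and 7.51 CPM in Tmet and at most 0.516 CPM in every Tnonmet library, and Col4a4 at 18.3 and 8.56 CPM in Tmet and at most 0.845 CPM elsewhere. These trimer partners of Col4a5 were called higher in Tmet against shControl (log2 changes 4.91 and 5.61, adjusted p 0.00013 and 0.000326). Both passed the filter on low counts only through Tmet. Col4a6 had 0 counts in shControl and 5.25 and 2.82 CPM in Tmet, at least 22.7-fold higher. Against the triple knockdown, which held 1 count, the ratio was 128 with a 95% exact counting interval of 22.7 to 5101. Without triple knockdown replicate 2 it was 66.1, and triple knockdown replicate 1 held its 1 count.

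Type VI collagen showed opposite directions in Tmet and in the knockdowns for 2 of its chains. Col6a1 stood at 19.7 and 13.3 CPM in Tmet, 226 and 232 CPM in the triple knockdown, 121 and 152 CPM in shNkx2-1, and 50.6 and 61.7 CPM in shControl. Col6a2 stood at 3.17 and 4.28 CPM in Tmet, 91.0 and 103 CPM in the triple knockdown, 54.8 and 58.4 CPM in shNkx2-1, and 30.4 and 31.2 CPM in shControl. For both genes the order was triple knockdown, shNkx2-1, shControl, Tmet from high to low, with no overlap between groups. Against shControl, Col6a1 changed by -1.77 ± 0.21 on the log2 scale in Tmet (adjusted p 0.000224), 2.02 ± 0.20 in the triple knockdown (0.000413) and 1.28 ± 0.20 in shNkx2-1 (0.0181), and Col6a2 by -3.04 ± 0.17 (4.7e-06), 1.66 ± 0.15 (0.000267) and 0.88 ± 0.15 (0.0238). Tmet against the triple knockdown gave -3.79 for Col6a1 (adjusted p 7.14e-06) and -4.70 for Col6a2 (1.05e-06), and both were called in every alternative. Col6a3, the largest chain of the same filament, did not share this order. It stood at 14.2 and 29.8 CPM in Tmet, 1.81 and 2.82 CPM in the triple knockdown, 0.486 and 0.563 CPM in shNkx2-1, and 0.267 and 0.361 CPM in shControl. Against shControl, the log2 rise of Col6a3 was 6.08 in Tmet (adjusted p 3.99e-05) and 2.83 in the triple knockdown (0.00888). The triple knockdown call was lost, with adjusted p up to 0.0689, without either shControl library or triple knockdown replicate 2. The rises of the 3 genes in the triple knockdown over shNkx2-1 (0.75, 0.78 and 2.12, adjusted p 0.0295, 0.008 and 0.0238) were lost without either shNkx2-1 library or triple knockdown replicate 2 and, for Col6a1, without the other 3 Tnonmet libraries as well, with adjusted p up to 0.186, 0.0803 and 0.134.

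**Figure D4:**
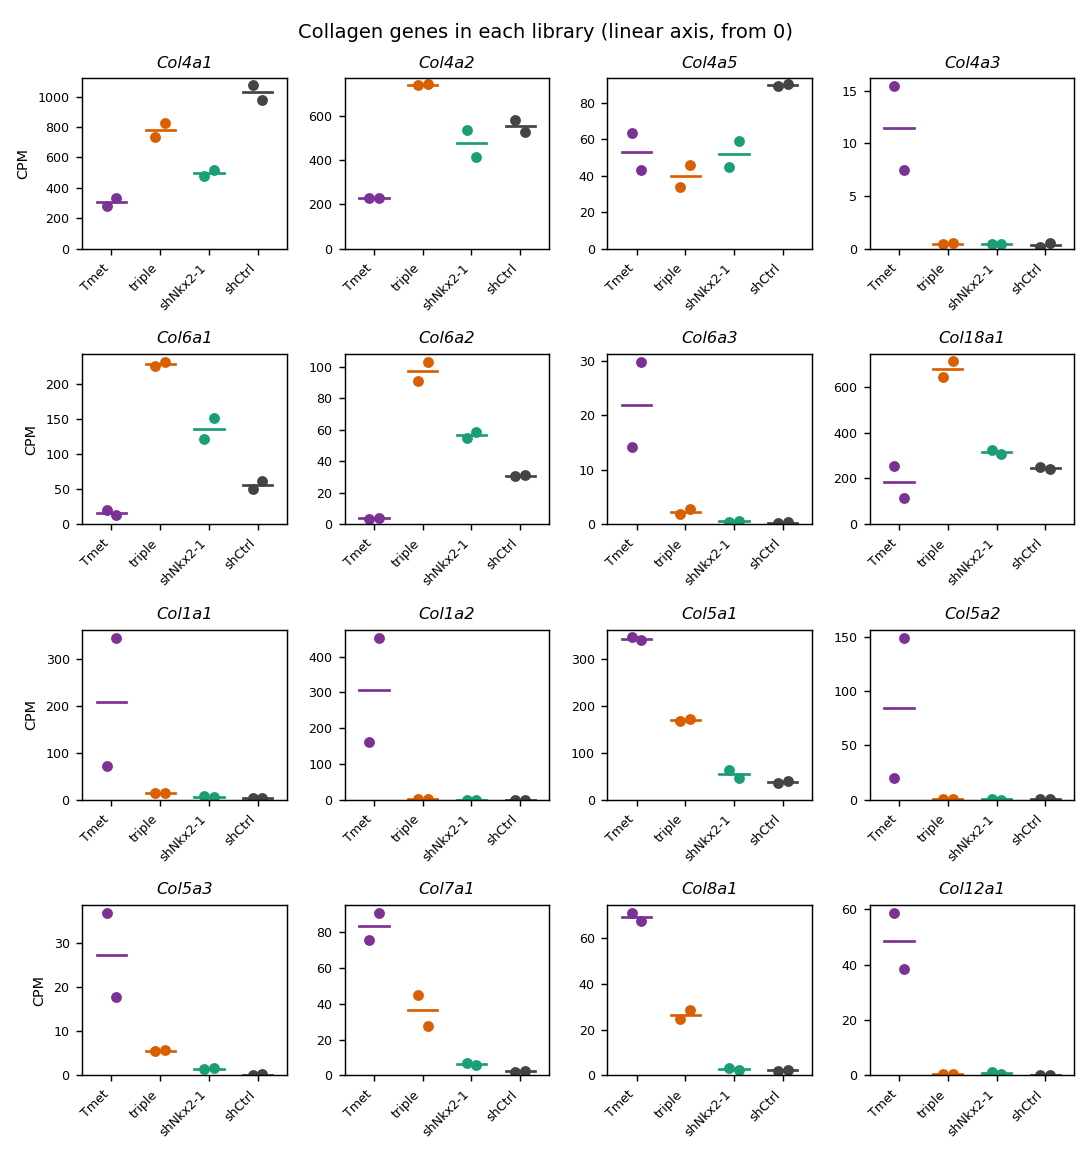
CPM of 16 collagen genes in each library (points, linear axis from 0) with the group mean (line); groups run Tmet, triple knockdown (triple), shNkx2-1 and shControl (shCtrl). Col6a1 and Col6a2 are highest in the triple knockdown, Col1a1, Col1a2 and Col5a2 stand at 72.2 and 346, 163 and 453, and 20.2 and 149 CPM in Tmet, and Col4a1 is highest in shControl.

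The chains of type I collagen, the main collagen of fibrous tissue, were high in Tmet. Col1a1 stood at 72.2 and 346 CPM in Tmet, 14.5 and 15.3 CPM in the triple knockdown, 7.53 and 5.52 CPM in shNkx2-1, and 3.13 and 3.71 CPM in shControl. Col1a2 stood at 163 and 453 CPM in Tmet, 3.01 and 2.37 CPM in the triple knockdown, 0.486 and 0.788 CPM in shNkx2-1, and 0.800 and 0.619 CPM in shControl. No Tmet library overlapped with another group, and the Tmet duplicates themselves lay far apart. Against shControl, the log2 rise of Col1a1 in Tmet was 5.92 ± 0.73 (adjusted p 0.000304) and that of Col1a2 8.77 ± 0.62 (1.55e-05). Without Tmet replicate 2 these were 4.38 and 7.85, and without Tmet replicate 1 they were 6.64 and 9.32. In the triple knockdown the changes were 2.11 ± 0.69 (0.0598) and 1.94 ± 0.73 (0.0925), not called although all triple knockdown libraries lay above all shControl libraries. Both were called without either Tmet library, and the cause of this difference was not tested. The log2 ratio of Col1a1 to Col1a2 counts was -1.18 and -0.39 in Tmet and 1.97 to 3.95 in the Tnonmet libraries. Col3a1, the type III chain that accompanies type I in soft tissue, stood at 17.0 and 14.7 CPM in Tmet and at most 1.09 CPM elsewhere, a log2 change of 4.89 in Tmet against shControl (adjusted p 8.12e-05).

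The Tmet duplicates also lay far apart in Acta2, while those of Pdgfrb and Twist2 lay closer together. The smooth muscle actin gene Acta2, counted here among the fibroblast markers, stood at 7.05 and 79.3 CPM in Tmet, and the pericyte receptor gene Pdgfrb at 6.99 and 4.94 CPM. Acta2 was at most 2.13 CPM and Pdgfrb at most 0.0641 CPM in the Tnonmet libraries. Twist2, which held most of the fibroblast marker sum in the Tnonmet libraries, stood at 20.4 and 22.2 CPM in Tmet and 30.9 and 37.3 CPM in shControl (log2 change -0.68, adjusted p 0.0157), and Dpt, Lum and Tcf21 were at 0 in Tmet. Of the 12 fibroblast markers, 5 were tested, and 4 were called higher and 1 lower in Tmet against shControl (29.2% and 28.1% of all tested genes). Pdgfrb and Lama2 (at most 0.121 CPM in the Tnonmet libraries) passed the filter on low counts only through Tmet. The count therefore describes only the markers that could be tested. The part of the fibroblast markers in the fibrillar collagen levels was not tested.

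The type V chains set the diameter of collagen fibrils, and Col5a1 was the fibrillar chain with most counts in all Tnonmet libraries. Col5a1 stood at 346 and 339 CPM in Tmet, 168 and 172 CPM in the triple knockdown, 64.1 and 46.6 CPM in shNkx2-1, and 36.1 and 39.9 CPM in shControl. The groups form a ladder without overlap. Against shControl it rose by 3.17 ± 0.16 in Tmet (adjusted p 2.94e-06) and by 2.16 ± 0.16 in the triple knockdown (0.000117), and the change of 0.54 ± 0.15 in shNkx2-1 was not called (0.105). It was also called higher in the triple knockdown against shNkx2-1 (1.62, 0.000435) and in Tmet against the triple knockdown (1.01 ± 0.15, 0.00105). All 4 of these calls were kept in every alternative. Col5a3 stood at 36.6 and 17.8 CPM in Tmet, 5.54 and 5.70 CPM in the triple knockdown, 1.40 and 1.63 CPM in shNkx2-1, and 0.133 and 0.258 CPM in shControl, also without overlap. Its log2 changes against shControl were 7.02 in Tmet (adjusted p 1.8e-05), 4.75 in the triple knockdown (0.000753) and 2.86 in shNkx2-1 (0.0476). Without Tmet replicate 1 the Tmet value was 6.40, and the shControl level rests on few counts. Col5a2 stood at 20.2 and 149 CPM in Tmet and at most 0.844 CPM in every Tnonmet library. Its log2 change in Tmet against shControl was 7.10 ± 1.05 (adjusted p 0.000742), 5.04 without Tmet replicate 2 and 7.91 without Tmet replicate 1. Col27a1, a fibrillar chain known from cartilage, rose by 1.75 in Tmet (0.00135) and 1.20 in the triple knockdown (0.0205), reaching 19.3 and 19.9 CPM in Tmet and 14.4 and 12.4 CPM in the triple knockdown, against 3.87 and 7.69 CPM in shControl.

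The promoter of Col5a1 is shown because the gene formed the ladder above, beside those of Col7a1 and Col8a1, which are described next. Each is the 250 bases before the annotated RefSeq start in GRCm38.p6, 5′ to 3′ on the strand of the gene: Col5a1 at chr2:27886175-27886424, plus strand, Col7a1 at chr9:108953336-108953585, plus strand, and Col8a1 at chr16:57754738-57754987, minus strand. The capitals mark every match, on either strand, to the GC box GGGCGG, the CCAAT box CCAAT, the core letters of the hypoxia-inducible factor site ACGTG, of a FOX factor site TGTTTAC, of an NKX2-1 site CTCAAG and of a CDX site TTTATNG, and the TATA box TATAAA. CDX and TATA letters can share bases.
Col5a1 promoter: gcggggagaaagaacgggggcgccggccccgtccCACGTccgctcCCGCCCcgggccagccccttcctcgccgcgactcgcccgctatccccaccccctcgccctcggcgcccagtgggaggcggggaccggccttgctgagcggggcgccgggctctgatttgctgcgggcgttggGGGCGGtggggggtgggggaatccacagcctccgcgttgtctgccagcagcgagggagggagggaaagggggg
Col7a1 promoter: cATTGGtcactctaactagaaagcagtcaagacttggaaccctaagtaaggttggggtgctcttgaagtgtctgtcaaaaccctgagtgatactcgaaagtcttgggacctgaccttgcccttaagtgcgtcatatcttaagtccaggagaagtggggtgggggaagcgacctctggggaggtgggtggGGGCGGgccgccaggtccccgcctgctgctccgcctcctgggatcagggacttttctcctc
Col8a1 promoter: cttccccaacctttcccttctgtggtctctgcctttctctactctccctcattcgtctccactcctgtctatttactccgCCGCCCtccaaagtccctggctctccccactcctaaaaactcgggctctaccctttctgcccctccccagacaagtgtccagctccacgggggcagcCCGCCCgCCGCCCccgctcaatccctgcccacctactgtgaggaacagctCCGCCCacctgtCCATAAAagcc
Col5a1 had 2 GC boxes and 1 hypoxia-inducible factor core, Col7a1 had 1 GC box and 1 CCAAT box, and Col8a1 had 4 GC boxes and 1 CDX core. Over the 45 windows of the 42 members with a RefSeq promoter entry, 62.2% held a GC box, against 32.7% of all 32851 windows. For the other letters the shares in member windows and all windows were 31.1% and 33.8% (CCAAT), 20.0% and 16.6% (hypoxia-inducible factor), 2.22% and 3.17% (FOX), 15.6% and 13.3% (NKX2-1), 13.3% and 9.81% (CDX), and 13.3% and 12.4% (TATA). A match describes the letters in these windows and not binding.

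Col7a1 and Col8a1 rose strongly in the triple knockdown. Col7a1, which forms the anchoring fibrils that tie the epidermal basement membrane to the dermis, stood at 75.6 and 90.3 CPM in Tmet, 44.7 and 27.7 CPM in the triple knockdown, 6.80 and 5.58 CPM in shNkx2-1, and 2.13 and 2.27 CPM in shControl. It rose against shControl by 5.23 ± 0.29 in Tmet (adjusted p 4.01e-06), 4.03 ± 0.28 in the triple knockdown (9.5e-05) and 1.48 ± 0.29 in shNkx2-1 (0.0362). Col8a1, a short-chain collagen known from vessel walls and the cornea, stood at 70.7 and 67.3 CPM in Tmet, 24.4 and 28.5 CPM in the triple knockdown, 3.46 and 2.59 CPM in shNkx2-1, and 2.07 and 2.32 CPM in shControl. Its log2 changes were 4.96 ± 0.20 in Tmet (8.75e-07), 3.58 ± 0.19 in the triple knockdown (3.16e-05) and 0.45 ± 0.21 in shNkx2-1 (0.307). Both genes separate the 4 groups without overlap, with the wider step between shNkx2-1 and the triple knockdown: 2.55 for Col7a1 (adjusted p 0.000495) and 3.13 for Col8a1 (5.05e-05).

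Among the collagens that bind to fibrils (FACIT collagens), Col12a1 stood at 58.5 and 38.4 CPM in Tmet and at most 1.15 CPM elsewhere, with a log2 change of 7.50 in Tmet against shControl (adjusted p 7.99e-06). Col16a1 was at 34.5 and 25.8 CPM in Tmet and at most 0.563 CPM in the knockdowns, and shControl held 1 count. Its ratio to shControl was 1032 in Tmet (95% exact counting interval 185 to 40800), 12.8 in the triple knockdown (1.9 to 548) and 19.1 in shNkx2-1 (3.03 to 793). Without shControl replicate 1 these were 582, 7.22 and 10.8, and without shControl replicate 2, which leaves 0 counts in shControl, at least 151, 1.85 and 2.77. Col14a1 ran the other way, with 0 and 0.0504 CPM in Tmet, 0.121 and 0 CPM in the triple knockdown, 2.67 and 2.76 CPM in shNkx2-1, and 1.87 and 0.361 CPM in shControl. It was 43.8-fold higher in shNkx2-1 than in the triple knockdown (11.8 to 367), which held 2 counts. Without triple knockdown replicate 2 this ratio was 22.5. The Tmet call against shControl was lost without shControl replicate 1 (adjusted p 0.0657), that of the triple knockdown without shControl replicate 1 or any one of the shNkx2-1 and triple knockdown libraries (up to 0.264), and that of the triple knockdown against shNkx2-1 without shNkx2-1 replicate 2 or either triple knockdown library (up to 0.0897).

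The multiplexins were highest in different groups. Col18a1 stood at 254 and 115 CPM in Tmet, 641 and 713 CPM in the triple knockdown, 325 and 307 CPM in shNkx2-1, and 249 and 239 CPM in shControl. The triple knockdown lay above all other libraries and the Tmet duplicates lay on both sides of shControl. It rose in the triple knockdown by 1.47 ± 0.30 against shControl (adjusted p 0.0106) and by 1.10 ± 0.30 against shNkx2-1 (0.0367), and the change in Tmet against shControl was -0.40 ± 0.30 (0.284). The rise over shControl was lost without either shControl library or triple knockdown replicate 2 (adjusted p up to 0.0837), and that over shNkx2-1 without any one of the 6 Tnonmet libraries (up to 0.201). In Tmet the value was 0.06 without Tmet replicate 2 and -1.08, a call, without Tmet replicate 1. Col15a1, its close relative, was at 2.29 and 3.88 CPM in Tmet and at most 0.243 CPM elsewhere. Its ratio in Tmet over the triple knockdown, which held 2 counts, was 50.2 (13.6 to 420).

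The 3 catalytic subunits of prolyl 4-hydroxylase, which make the hydroxyproline that keeps the collagen helix stable at body temperature, each followed a different course. P4ha1 stood at 71.5 and 67.4 CPM in Tmet, 103 and 99.1 CPM in the triple knockdown, 31.5 and 35.0 CPM in shNkx2-1, and 51.3 and 41.6 CPM in shControl. The triple knockdown was highest and shNkx2-1 lowest, without overlap. P4ha1 rose by 0.58 ± 0.13 in Tmet (adjusted p 0.0069) and 1.12 ± 0.14 in the triple knockdown (0.00102) against shControl, and by 1.60 ± 0.14 in the triple knockdown against shNkx2-1 (0.000276). The Tmet call was lost without shControl replicate 2 (0.0773). P4ha2 stood at 46.5 and 46.1 CPM in Tmet, 43.2 and 52.2 CPM in the triple knockdown, 28.4 and 45.0 CPM in shNkx2-1, and 19.0 and 17.5 CPM in shControl, with shControl below every other library. Its log2 changes against shControl were 1.34 (0.00122), 1.39 (0.00337) and 1.01 (0.0493). P4ha3 stood at 0.929 and 3.02 CPM in Tmet, 5.06 and 5.96 CPM in the triple knockdown, 20.0 and 22.8 CPM in shNkx2-1, and 11.5 and 11.9 CPM in shControl. Its log2 change in Tmet against shControl was -2.55 (0.00127), which was -3.65 without Tmet replicate 2 and -1.95 without Tmet replicate 1. It fell by 1.96 in the triple knockdown against shNkx2-1 (0.00995). The change between the knockdowns was lost without shNkx2-1 replicate 2 or either triple knockdown library (adjusted p up to 0.0892).

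The collagen chaperone Serpinh1 was the member with the highest level per kb in Tmet, at a mean of 148 CPM per kb, against 97.6 in the triple knockdown, 66.6 in shNkx2-1 and 61.4 in shControl. It stood at 293 and 380 CPM in Tmet, 231 and 213 CPM in the triple knockdown, 155 and 148 CPM in shNkx2-1, and 139 and 140 CPM in shControl, again a ladder without overlap. Serpinh1 rose against shControl by 1.27 ± 0.14 in Tmet (adjusted p 0.000137) and 0.67 ± 0.13 in the triple knockdown (0.00932), and 0.12 ± 0.13 in shNkx2-1 was not called (0.718). The triple knockdown call was lost without either shControl library or triple knockdown replicate 1 (up to 0.0774).

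The promoters of P4ha1, P4ha2 and Serpinh1 are shown as those of genes that act in collagen folding and were called higher in both Tmet and the triple knockdown. They are the 250 bases before the RefSeq start in GRCm38.p6: P4ha1 at chr10:59323046-59323295, plus strand, P4ha2 at chr11:54100674-54100923, plus strand, and Serpinh1 at chr7:99353240-99353489, minus strand. The capitals mark the same letters as above.
P4ha1 promoter: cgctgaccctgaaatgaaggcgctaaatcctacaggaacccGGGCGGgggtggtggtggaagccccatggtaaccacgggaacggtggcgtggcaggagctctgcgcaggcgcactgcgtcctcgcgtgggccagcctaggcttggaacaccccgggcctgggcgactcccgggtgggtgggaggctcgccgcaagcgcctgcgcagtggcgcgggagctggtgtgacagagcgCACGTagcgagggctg
P4ha2 promoter: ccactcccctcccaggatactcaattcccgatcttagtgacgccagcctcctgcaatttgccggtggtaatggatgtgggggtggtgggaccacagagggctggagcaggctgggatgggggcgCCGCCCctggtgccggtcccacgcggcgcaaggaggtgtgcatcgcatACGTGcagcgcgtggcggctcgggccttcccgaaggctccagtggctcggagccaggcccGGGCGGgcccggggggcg
Serpinh1 promoter: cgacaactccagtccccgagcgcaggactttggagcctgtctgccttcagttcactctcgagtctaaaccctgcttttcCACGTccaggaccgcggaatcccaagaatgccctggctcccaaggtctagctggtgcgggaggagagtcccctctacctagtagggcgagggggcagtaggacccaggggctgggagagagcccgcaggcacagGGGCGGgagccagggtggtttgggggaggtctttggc
All 3 windows held 1 hypoxia-inducible factor core and at least 1 GC box. They were picked by the calls of their genes. Over the windows of all members 20.0% held that core and 62.2% a GC box, against 16.6% and 32.7% of all windows. None of the 3 held the FOX, NKX2-1 or CDX letters, which only 3.17%, 13.3% and 9.81% of all windows hold. P4ha1 and P4ha2 are known targets of the hypoxia response. Of 13 hypoxia response genes, all tested, 7 were called higher and the others not called in the triple knockdown against shControl (12.0% of all tested genes were called higher), among them Vegfa (1.36, adjusted p 0.00745), and 9 higher against shNkx2-1 (9.27% of all genes) with the others not called. In Tmet against shControl 4 were called higher and 2 lower, where 29.2% and 28.1% of all genes were. The part of these genes in the hydroxylase levels was not tested.

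The lysyl hydroxylases prepare lysines for glycosylation and crosslinking. Plod1 stood at 31.7 and 36.7 CPM in Tmet, 51.6 and 55.4 CPM in the triple knockdown, 51.9 and 48.5 CPM in shNkx2-1, and 22.0 and 29.9 CPM in shControl. Both knockdown groups lay above Tmet and shControl. It rose by 1.04 ± 0.17 in the triple knockdown (adjusted p 0.0037) and 0.95 ± 0.17 in shNkx2-1 (0.0276) against shControl, and the 0.40 ± 0.17 in Tmet was not called (0.0738). Plod2, which hydroxylates the telopeptides that form stable crosslinks, stood at 37.2 and 28.3 CPM in Tmet, 33.6 and 43.1 CPM in the triple knockdown, 14.1 and 15.1 CPM in shNkx2-1, and 26.2 and 29.6 CPM in shControl. The shNkx2-1 libraries were lowest. Plod2 fell by 0.93 in shNkx2-1 against shControl (adjusted p 0.0407), a call that was not kept in every alternative. With 1 library left out this log2 change was -1.02 to -0.85. Plod2 rose by 1.39 in the triple knockdown against shNkx2-1 (0.00223, kept in every alternative). Plod3 stood at 117 and 151 CPM in Tmet and 98.9 to 114 CPM elsewhere. Its rise of 0.39 in Tmet (0.0353) was lost in 7 of 8 fits without 1 library, with adjusted p up to 0.186. In the annotation, 16.1% of the exon bases of Plod3 overlap with Znhit1 and 9.32% of those of Plod2 with Gm38391 on the opposite strand, and no source used here says whether counting used strand.

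The lysyl oxidases, copper enzymes that start the covalent crosslinks of collagen and elastin, differed in the groups where they were high. Loxl2 stood at 174 and 178 CPM in Tmet, 107 and 131 CPM in the triple knockdown, 65.5 and 67.5 CPM in shNkx2-1, and 29.9 and 46.1 CPM in shControl. The 4 groups do not overlap. Loxl2 rose against shControl by 2.21 ± 0.20 in Tmet (adjusted p 6.25e-05) and 1.64 ± 0.20 in the triple knockdown (0.00108), and 0.80 ± 0.20 in shNkx2-1 was not called (0.0725). Its changes between the triple knockdown and shNkx2-1 (0.84, 0.0202) and between Tmet and the triple knockdown (0.56, 0.0424) were each lost without either triple knockdown library or either shNkx2-1 library, and the second also without Tmet replicate 2, with adjusted p up to 0.145 and 0.236. Loxl4 stood at 36.6 and 52.1 CPM in Tmet, 162 and 179 CPM in the triple knockdown, 73.7 and 67.1 CPM in shNkx2-1, and 53.1 and 66.6 CPM in shControl. The triple knockdown was highest and Tmet lowest. Loxl4 rose by 1.51 ± 0.19 in the triple knockdown against shControl (0.00121) and by 1.27 ± 0.19 against shNkx2-1 (0.00302). In Tmet its change was -1.94 against the triple knockdown (0.00013) and -0.43 against shControl (0.0792).

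Lox itself had 0 counts in all 6 Tnonmet libraries and stood at 1.58 and 4.53 CPM in Tmet. It was at least 17.2-fold higher in Tmet than in shControl and at least 16.4-fold higher than in the triple knockdown. Without Tmet replicate 2 these bounds were 8.90 and 8.47. edgeR called both (adjusted p 0.00454 and 0.00623) and DESeq2 did not (0.137 and 0.156). Lox passed the filter on low counts only through Tmet. Loxl1, which acts mainly on elastin, stood at 4.59 and 14.3 CPM in Tmet and at most 0.422 CPM elsewhere. Its ratio to shControl, which held 3 counts, was 111 in Tmet (95% exact counting interval 37.5 to 539) and 4.63 in the triple knockdown (1.27 to 25.3), where the change was not called (adjusted p 0.202). With 1 library left out, the Tmet ratio ranged from 52.6, without Tmet replicate 2, to 187, without shControl replicate 1, and was 72.4 without shControl replicate 2. That of the triple knockdown ranged from 3.03, without shControl replicate 2, to 7.82, without shControl replicate 1. Loxl3 stood at 8.80 and 5.99 CPM in Tmet and 2.60 to 4.84 CPM elsewhere, and its rise of 1.29 in Tmet (adjusted p 0.0196) was lost without either shControl library (up to 0.122). In the annotation, 13.1% of its exon bases overlap with Htra2 on the opposite strand.

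**Figure D5:**
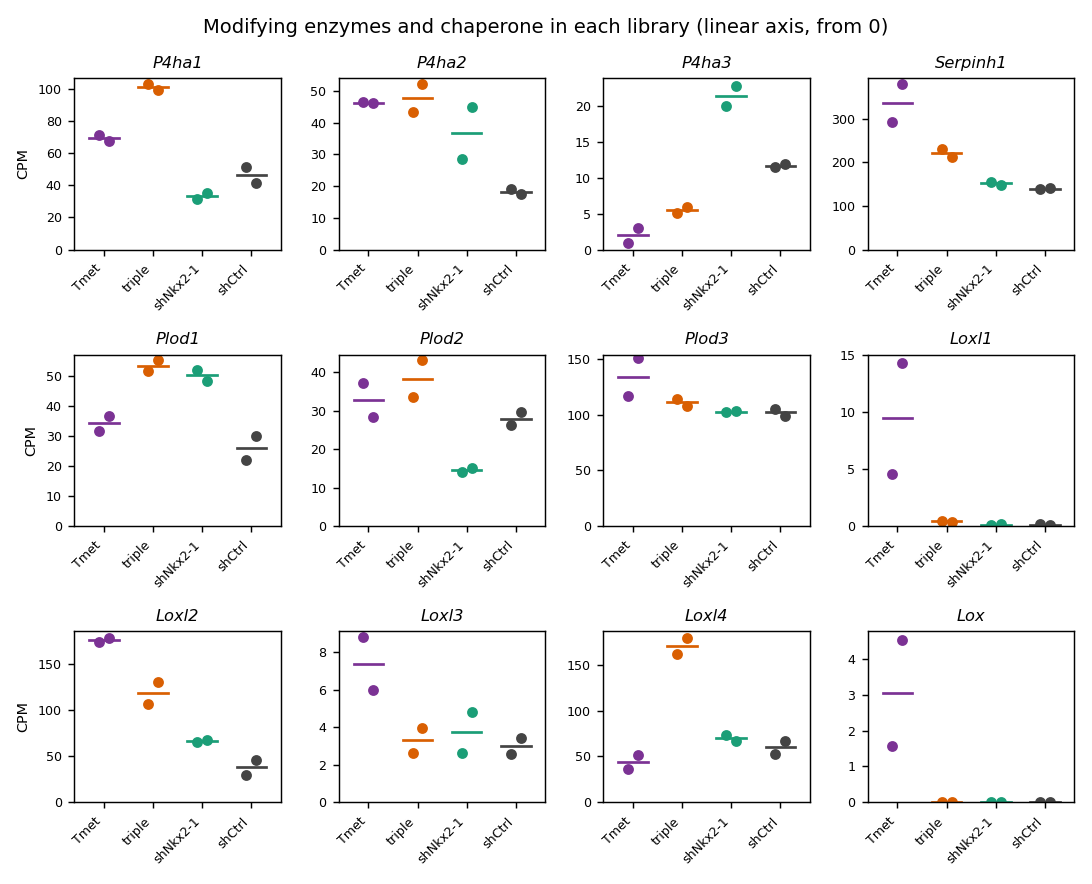
CPM of the 12 genes that act on collagen in each library (points, linear axis from 0) with the group mean (line); groups run Tmet, triple knockdown (triple), shNkx2-1 and shControl (shCtrl). Loxl4 and P4ha1 are highest in the triple knockdown (162 and 179, and 103 and 99.1 CPM), Loxl2 and Serpinh1 are highest in Tmet and lowest in shControl, and Lox is at 0 outside Tmet.

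Genes of the pathway outside the members were counted by lists, to be read against the share of all tested genes called higher and lower, which against shControl was 29.2% and 28.1% in Tmet, 12.0% and 12.4% in the triple knockdown, and in shNkx2-1 2.17% and 1.38%. Of 17 other folding and modification genes (16 tested), 5 were called higher and 8 lower in Tmet and 2 higher and 3 lower in the triple knockdown, each against shControl. Creb3l1, a transcription factor of collagen-secreting cells, was at 46.0 and 45.5 CPM in Tmet and at most 0.769 CPM elsewhere (log2 change 6.36 in Tmet against shControl, adjusted p 7.19e-07). Leprel4 and Fkbp10, partners in collagen folding, were at 16.6 and 42.3 CPM and 29.8 and 96.7 CPM in Tmet, against at most 0.425 and 0.243 CPM elsewhere. Both passed the filter on low counts only through Tmet. Among the lists that follow, this also holds for Adamts2, Mmp2 and Mrc2 (at most 0.256, 0.128 and 0.723 CPM outside Tmet). All of them count as called higher in Tmet. The Tmet counts of these pathway lists therefore describe only the genes that could be tested. Among the lower calls, Leprel1, a prolyl 3-hydroxylase, was at 0.273 and 0.201 CPM in Tmet against 2.33 and 2.32 CPM in shControl (-3.26, adjusted p 0.000185), and the folding enzyme Fkbp14 at 7.92 and 6.65 CPM in Tmet and 8.68 and 11.5 CPM in the triple knockdown, against 21.4 and 22.0 CPM in shControl (-1.58, 0.000252, and -1.11, 0.00433). The peptidyl-prolyl isomerase Ppib also fell in Tmet (-0.65, 0.00156). The constant subunit of prolyl 4-hydroxylase, P4hb, was called in neither, with log2 changes of -0.35 in Tmet (0.0754) and -0.21 in the triple knockdown (0.341).

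Of 14 procollagen processing and fibril assembly genes (9 tested), 7 were called higher and 1 lower in Tmet, 5 higher in the triple knockdown and 2 higher in shNkx2-1 against shControl. Bmp1, the proteinase that removes the procollagen C-propeptide, was at 293 and 243 CPM in Tmet against 76.9 and 79.8 CPM in shControl (1.78, adjusted p 1.72e-05). Its enhancer Pcolce rose in all 3 groups, by 1.93 in Tmet (4.82e-06), 0.67 in the triple knockdown (0.00344) and 0.70 in shNkx2-1 (0.0176). The shNkx2-1 call was not kept in every alternative. Of 9 collagen receptors (6 tested), 3 were called higher and 2 lower in Tmet and 1 higher and 2 lower in the triple knockdown. Ddr2, a receptor for fibrillar collagen, was at 50.5 and 62.3 CPM in Tmet, 0.844 and 1.54 CPM in the triple knockdown and 0.400 and 0.206 CPM in shControl, called higher in both (7.56, adjusted p 1.94e-06, and 1.99, 0.0165). The integrin subunit Itga1, which binds type IV collagen, fell to 0.437 and 0.554 CPM in Tmet and 2.89 and 4.74 CPM in the triple knockdown, against 86.2 and 120 CPM in shControl (-7.67, adjusted p 3.34e-06, and -4.76, 8.69e-05). Of 11 collagen breakdown genes (6 tested), 2 were called higher and 2 lower in Tmet and 1 higher and 1 lower in the triple knockdown. Pepd, the peptidase that frees proline from collagen fragments, was at 26.6 and 26.2 CPM in Tmet, 33.9 and 35.7 CPM in the triple knockdown, against 69.5 and 64.3 CPM in shControl (-1.34, adjusted p 4.08e-05, and -0.94, 0.000984). Mmp14, a membrane-bound collagenase, was at 93.7 and 122 CPM in Tmet, 26.7 and 15.3 CPM in the triple knockdown and 5.87 and 8.26 CPM in shControl (3.92, adjusted p 2.84e-05, and 1.56, 0.00749).

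The 16 members that did not pass the filter were all collagens: Col2a1, Col6a4, Col6a5, Col6a6, Col8a2, Col9a1, Col9a2, Col9a3, Col10a1, Col13a1, Col17a1, Col19a1, Col22a1, Col23a1, Col25a1 and Col28a1. Their highest group mean was 0.493 CPM (Col9a3 in Tmet). Col17a1, the transmembrane collagen of hemidesmosomes, averaged 0.216 CPM in Tmet, 0.122 in the triple knockdown, 0 in shNkx2-1 and 0.0258 in shControl. Col13a1 had 0 counts in every library. The tested members not described above were Col11a1 (called higher in Tmet against shControl, 2.12, adjusted p 0.0111, and against the triple knockdown, 2.19, 0.0129), Col24a1 (called lower in Tmet, -2.04, 0.014, and in the triple knockdown, -2.46, 0.0214), Col11a2 and Col20a1, called in no comparison. Col11a1 passed the filter on low counts only through Tmet.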

How the data were processed

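The series holds 8 RNA sequencing libraries in 4 groups, read from the titles. Per the labels' protocols, libraries were made with an Illumina TruSeq kit and read as 45 nt single ends. Tools named in the submitters' processing notes are RSEM 1.2.12 and Bowtie 1.0.1, with the build mm9. Annotation, filters and strand: not given in the sources used here. The authors deposited estimated counts (RSEM expected counts) per gene, of which 34.7% to 38% per library were not whole. RSEM splits reads between genes of shared sequence.

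Counts were rounded and fitted with edgeR 4.0.16 (limma 3.58.1, R 4.3.3): TMM scaling, filterByExpr (minimum count 10, minimum total 15), 1 quasi-likelihood fit of all 8 libraries by group with no covariate, 5 two-sided contrasts and Benjamini-Hochberg adjustment over 13318 genes (9906 not tested). The fit had 4 residual and 3.94 prior degrees of freedom and a common biological coefficient of variation of 15.6%. Standard errors come from the fold change and its F statistic. Levels per kb use the longest coding transcript in GENCODE M21. Where a group held 0 counts, folds are bounds at a floor of 3 counts per library, and where it held 1 to 3, ratios carry a 95% exact counting interval; both cover counting error only. Promoters are RefSeq windows of GRCm38.p6, another build than mm9, and no coordinate was converted.

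Alternatives were DESeq2 1.42.0 (also its size factors in edgeR), other filters on low counts, a replicate block, only the 2 groups compared, no Tmet libraries, and each library left out. Named were 25 members whatever their result, plus the 8 largest called rises and falls per contrast among members whose higher group reached 1 CPM, and up to 3 genes with the smallest p per other list and contrast. Col4a3, Col4a4, Col11a1, Col11a2, Col20a1, Col24a1, Col27a1, P4hb, Ppib, Krt8 and some contrasts of other genes fall outside that rule and were added after their values were seen. Members and lists were chosen with earlier results of these data known.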

Additional observations from a re-analysis of the deposited data

How the results depend on the processing

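Of 90 named calls, 53 were kept in every alternative, 35 were lost in a fit without 1 library and 11 in another alternative; 20 of 48 named results that were not called were called in some fit. The counts within 1.5 times in every alternative were the members higher and lower in both Tmet comparisons, the members higher in the triple knockdown against shControl, and all genes in Tmet against shControl. In shNkx2-1 against shControl, members higher (7) and lower (2) and all genes (473) became 3, 1 and 294 with a replicate block, 11, 4 and 1779 with only the 2 groups compared and 12, 4 and 2006 without both Tmet libraries; DESeq2 gave 4 lower and 908 genes. Leaving out 1 library gave 0 to 13, 0 to 4 and 0 to 1998. In the triple knockdown against shControl, members lower (3) became 5 with no filter on low counts and 5 without both Tmet libraries, and all genes (3243) became 5607 with only the 2 groups compared and 5424 without both Tmet libraries; leaving out 1 library gave 0 to 5 and 1248 to 5459. In the triple knockdown against shNkx2-1, members lower (2) became 4 with no filter and 4 without both Tmet libraries, and all genes (2711) became 4518 with only the 2 groups and 4958 without both Tmet libraries; leaving out 1 library gave 6 to 17 higher, 0 to 4 lower and 1024 to 4994 genes. All genes in Tmet against the triple knockdown (6404) ranged over 3962 to 7901. The cause of these moves was not tested. Direction reversed only in results that were not called, over the fits without 1 library: in shNkx2-1 against shControl Col1a2 (-0.52 to 0.17), Loxl1 (-0.49 to 1.07), Loxl3 (-0.21 to 0.68) and Plod3 (-0.04 to 0.05); in the triple knockdown against shControl Col5a2 (-0.43 to 0.47) and Loxl3 (-0.18 to 0.40); in Tmet against shControl Col18a1 (-1.08 to 0.06); in the triple knockdown against shNkx2-1 Col12a1 (-1.04 to 0.30) and Loxl3 (-0.55 to 0.34); and in Tmet against the triple knockdown P4ha2 (-0.18 to 0.09). Deviations of same-numbered libraries correlated at 0.149 to 0.227 among the Tnonmet groups and at -0.161 to -0.042 with Tmet, so same-numbered Tnonmet libraries deviated together, but with 2 libraries a group this is a hint from the data and the numbers were not taken to pair the samples. The replicate block ended the calls of Col5a3, Col7a1, P4ha2 and Plod2 in shNkx2-1 against shControl (adjusted p 0.0716, 0.0606, 0.0697 and 0.0731), Col14a1 in the triple knockdown against shControl (0.0519) and Col6a1 in the triple knockdown against shNkx2-1 (0.0547), and also that of Plod3 in Tmet against shControl. With the replicate block, members called higher were 16, 24, 14 and 21, and lower 2, 8, 2 and 9, in the triple knockdown and Tmet against shControl, the triple knockdown against shNkx2-1 and Tmet against the triple knockdown. A crossed pairing of the Tmet numbers, added after seeing the data, gave 21 higher, 9 lower and 7021 genes in Tmet against the triple knockdown. Members under about 10 counts a library are limited by depth. Smaller changes may be missed there, and a missing call does not show that a change is absent.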
